A study of Mus musculus with 36 samples.

Results

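Livers of C57BL/6J mice kept for 16 weeks on a time-restricted diet without calorie restriction (TR, labelled TR.al) were set against livers of mice of the same strain fed ad libitum (AL). The comparison takes 12 of the 36 liver and fat samples of the series, chosen by their tissue and diet labels, 6 TR and 6 AL livers. It asks which programs a daily fast changes in the liver when intake is not cut on purpose. A 3rd liver group of 6, calorie-restricted (CR), enters only where the CR and TR livers were compared with each other. Both diets share the strain and the 16 weeks, RNA was taken with Trizol from frozen tissue, and the sources used here give no sex, age or hour of sampling. An effect of the regime and one of the hours since food was last eaten cannot be told apart in any result below. What is read is the authors' own fit, 1 log2 fold change, 1 statistic and 1 adjusted p for each gene, so values per mouse, their spread and the depth of each library are unknown here. In bulk tissue, fewer cells of a type and less RNA per cell cannot be told apart.

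The liver takes up the sugars and amino acids of a meal, stores part of them, exports glucose during a fast, makes most proteins of the blood plasma and clears foreign compounds. Secreted proteins are folded in the endoplasmic reticulum (ER) by chaperones such as BiP, whose genes are raised by the unfolded protein response when folding demand exceeds capacity. Hepatocytes and resident macrophages also hold sensors of foreign nucleic acid, and type I interferon switches on a common set of antiviral genes through a transcription factor complex that contains IRF9. Many enzymes that conjugate or oxidise foreign compounds follow nuclear receptors, growth hormone secretion and the circadian clock.

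Of 12691 genes tested, 2397 passed the authors' adjusted p under 0.05, which is 18.9% of the table: 1186 were higher in TR (9.35%) and 1211 were lower (9.54%). The shares are the background against which each group of genes below is read. The words rose and fell are kept for genes that passed, and every log2 fold change of a gene is TR minus AL unless stated. The median log2 fold change of all genes was -0.0005, and the median size among the called genes was 0.59. A log2 change of at least 1 was reached by 248 of the genes that rose and 200 of those that fell. An approximate standard error (SE), derived from each fold change and its likelihood-ratio statistic, had a median of 0.152 over genes. The share called was 14.2% in the fifth of genes with the lowest mean expression (counts scaled to library size, CPM) and 25.9% in the fifth with the highest, so the share called differed with expression level. Set against an F distribution with 1 and 10 degrees of freedom, a stricter reference than the chi-square of the authors, the same statistics gave 472 genes higher and 510 lower in TR, and 68 of 132 list counts moved by over 1.5 times.

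**Figure D1:**
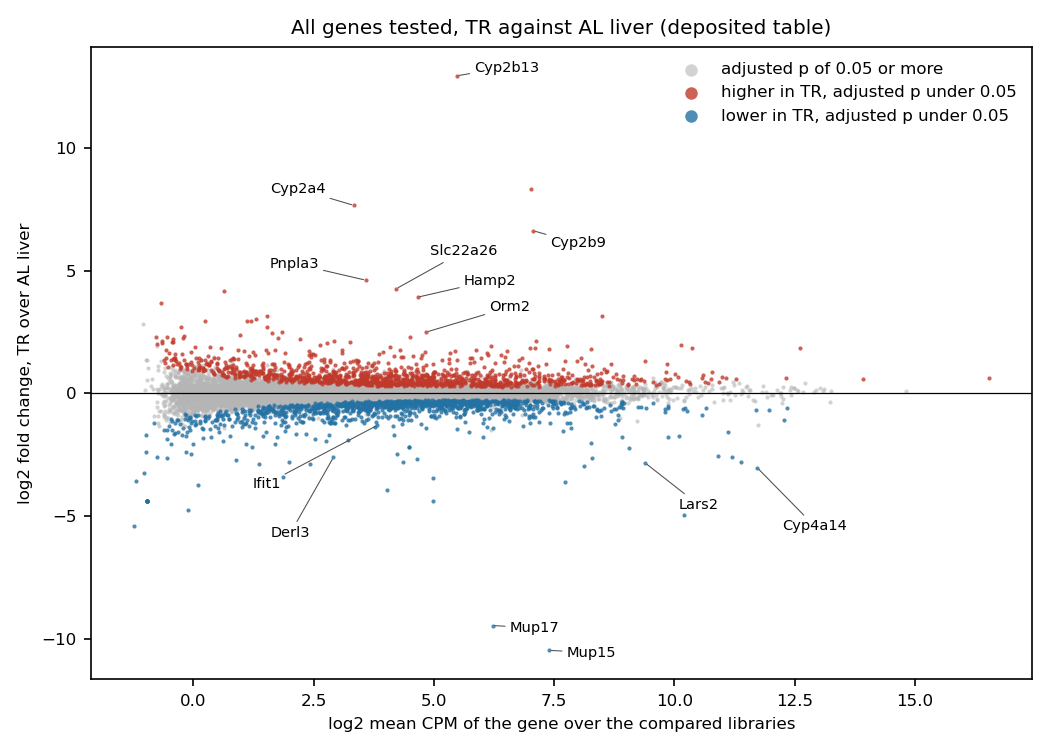
Log2 fold change of TR over AL liver (vertical axis) against the log2 mean CPM (horizontal axis) for every gene of the deposited table, 1 point a gene, red where higher in TR, blue where lower and grey where the adjusted p was 0.05 or more. Cyp2b13 at 12.92 and Mup15 at -10.45 mark the ends, and the grey band widens towards low CPM.

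The ends of the ranking were held by a few secreted proteins, enzymes and transporters. Among genes whose log2 mean CPM reached 2, the 15 highest included Cyp2b13, Cyp2a4, Cyp2b9 and Slc22a26, and also Hamp2, a hepcidin gene, Orm2, an acute phase glycoprotein of plasma, and Rgs16, a regulator of G protein signalling. Pcp4l1 rose by 2.31 (adjusted p = 4.37e-19) and Hcn3, an ion channel gene, by 2.13 (adjusted p = 1.21e-20) per the authors' deposited table. Chrna4, a subunit of the nicotinic acetylcholine receptor, rose by 2.09 (adjusted p = 3.56e-06) per the authors' deposited table. Hcn3 lies next to Pklr on chromosome 3 (GRCm38, 89146074 to 89160196 against 89136142 to 89146784), their annotated spans overlap, and no source used here says whether reads were counted by strand, so the 2 cannot be told apart with certainty. Of the 15 lowest, with predicted genes left out, 9 were major urinary protein (Mup) genes, which are near-identical copies on chromosome 4 whose reads RSEM divides by estimate. The others were Cyp4a14, Cidec, the clock genes Dbp and Nr1d1, Lars2 and Derl3.

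Promoters are shown here for the 2 lists (of those with at least 10 measured genes) in which the largest share of genes fell and for a heat shock gene that rose, since each carries the sequence its textbook regulator reads. The windows are the 250 bases before the RefSeq transcription start (GRCm38.p6), written 5′ to 3′ on the strand of the gene, and capitals mark the motif. In the promoters of Ifit1 (chr19:34640639-34640888, plus strand), Isg15 (chr4:156200819-156201068, minus strand) and Rsad2 (chr12:26456453-26456702, minus strand), capitals mark the interferon-stimulated response element, searched as GAAA and GAAA separated by 2 bases, which the complex with IRF9 binds:
Ifit1: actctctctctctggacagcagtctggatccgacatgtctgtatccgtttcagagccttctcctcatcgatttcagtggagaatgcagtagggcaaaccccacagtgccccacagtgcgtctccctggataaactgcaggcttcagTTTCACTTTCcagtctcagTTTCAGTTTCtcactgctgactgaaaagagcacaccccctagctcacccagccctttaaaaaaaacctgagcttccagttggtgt
Isg15: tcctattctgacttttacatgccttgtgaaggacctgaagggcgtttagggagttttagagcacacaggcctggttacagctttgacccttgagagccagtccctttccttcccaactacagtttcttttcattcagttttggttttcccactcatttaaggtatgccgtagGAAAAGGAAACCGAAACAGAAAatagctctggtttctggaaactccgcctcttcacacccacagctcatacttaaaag
Rsad2: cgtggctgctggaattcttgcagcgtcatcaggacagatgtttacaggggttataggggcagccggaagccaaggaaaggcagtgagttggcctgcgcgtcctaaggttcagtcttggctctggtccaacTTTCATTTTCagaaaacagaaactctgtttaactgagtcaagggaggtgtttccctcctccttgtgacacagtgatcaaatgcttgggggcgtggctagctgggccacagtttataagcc
The motif begins 104 and 85 bases before the start in Ifit1, at 78, 72 and 66 bases, overlapping, in Isg15, and at 120 bases in Rsad2. On either strand, within 250 bases before to 50 after the start, 18 of the 29 interferon-stimulated genes with a RefSeq promoter held it (62.1%), beside 378 of all 9743 measured genes with one (3.88%). It was present in 9 of the 13 members whose level changed and 9 of the 16 that did not pass.

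In Hspa5 (chr2:34771840-34772089, plus strand), Derl3 (chr10:75893148-75893397, plus strand) and Calr (chr8:84846932-84847181, minus strand), capitals mark the ER stress element, CCAAT and CCACG separated by 9 bases on either strand, which the unfolded protein response factor ATF6 reads together with NF-Y:
Hspa5: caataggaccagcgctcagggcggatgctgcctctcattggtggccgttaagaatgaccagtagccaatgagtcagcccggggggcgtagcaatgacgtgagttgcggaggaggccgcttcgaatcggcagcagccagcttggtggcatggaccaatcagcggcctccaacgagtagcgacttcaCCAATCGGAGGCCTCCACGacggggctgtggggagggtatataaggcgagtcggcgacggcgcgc
Derl3: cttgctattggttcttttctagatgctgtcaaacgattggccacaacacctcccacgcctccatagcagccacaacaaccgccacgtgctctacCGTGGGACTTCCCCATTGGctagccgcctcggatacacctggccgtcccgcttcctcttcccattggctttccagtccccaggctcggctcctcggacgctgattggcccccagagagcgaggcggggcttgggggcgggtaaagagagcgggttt
Calr: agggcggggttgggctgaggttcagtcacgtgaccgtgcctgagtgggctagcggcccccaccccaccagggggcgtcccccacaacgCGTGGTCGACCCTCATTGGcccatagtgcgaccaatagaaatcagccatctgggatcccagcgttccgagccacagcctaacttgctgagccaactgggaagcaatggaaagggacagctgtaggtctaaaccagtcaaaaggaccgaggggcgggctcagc
The element begins 65 bases before the start in Hspa5, 156 in Derl3 and 162 in Calr. It was held by 9 of the 24 ER chaperone genes with a promoter (37.5%), beside 18 of 9743 measured genes (0.185%). It was present in 5 of the 11 members that fell and in 4 of the 13 that did not pass. The planned, looser search for CCAAT and CCACG at any distance was met by 18 of these 24 genes (75%) and by 20.1% of all measured genes. In Hspb1 (chr5:135887669-135887918, plus strand), capitals mark the heat shock element, GAANNTTC or TTCNNGAA, read by heat shock factor:
Hspb1: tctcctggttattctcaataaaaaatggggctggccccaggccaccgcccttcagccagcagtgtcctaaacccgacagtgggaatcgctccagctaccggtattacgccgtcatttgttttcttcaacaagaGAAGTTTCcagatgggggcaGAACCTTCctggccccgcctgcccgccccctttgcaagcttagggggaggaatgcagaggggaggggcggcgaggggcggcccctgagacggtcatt
The element stood in 12 of 23 genes of the heat shock list with a promoter (52.2%) and 14.1% of all measured genes. It was present in 2 of the 4 called members and 10 of the 19 not called. Of all genes with a promoter, 15% of those that rose and 14.6% of those that fell held it. The D-box (TTATGTAA or TTACGTAA, on either strand), read by DBP and its antagonist NFIL3, was in 18 of the 899 genes that rose with a promoter (2%) and 4 of the 948 that fell (0.422%), beside 86 of all 9743 (0.883%). Among clock outputs with a promoter it was in 0 of the 7 called and 1 of the 5 not called. The E-box CACGTG, read by the clock factors CLOCK and BMAL1, was in 10.6% of genes that rose, 13.7% of those that fell and 11.8% of all. Of the clock outputs, 1 of the 7 called and 2 of the 5 not called held it. Each match is a description of the letters in these windows, with no test, and the 2 elements of the first searches were chosen after the data were seen.

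Many interferon-stimulated genes fell in TR livers. Of 42 measured members, 22 fell (52.4%) and 1 rose (2.38%), 39 lay below 0, and the median was -0.52, beside 9.54% and 9.35% of all genes and a median of -0.0005. Ifit1, which binds foreign RNA 5′ ends (ENSMUSG00000034459, GRCm38 chromosome 19 from 34640871 to 34650009), fell by 1.30 (approximate SE 0.181, adjusted p = 8.25e-11) per the authors' deposited table. Rsad2, the antiviral enzyme viperin, fell by 1.21 (adjusted p = 4.38e-10) per the authors' deposited table. Ddx58, the RNA sensor RIG-I, fell by 0.71 (approximate SE 0.110, adjusted p = 9.23e-09), and its fellow sensors Ifih1 (MDA5) and Dhx58 (LGP2) had -0.45 and -0.65 per the authors' deposited table, both called.

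Sensors, signalling factors and effectors were all among the genes that fell. Irf9, which encodes a part of the factor that interferon activates, fell by 0.57 (adjusted p = 8.40e-04) per the authors' deposited table. Mx1 and Mx2, genes of the dynamin-like GTPase family, fell by 1.18 and 0.97, and Isg15, a ubiquitin-like modifier, by 1.13 (adjusted p = 1.14e-04) per the authors' deposited table. Usp18, which removes ISG15 from proteins, fell by 1.16 (adjusted p = 8.31e-08) per the authors' deposited table. The 1 member that rose was Bst2, the tethering factor tetherin, which rose by 0.52 (adjusted p = 0.00506) per the authors' deposited table. Genes outside the list that interferon can raise, looked up after their values were seen, went both ways. Ifitm3, Ifitm2 and Ly6e rose by 0.665, 0.52 and 0.57, and Eif2ak2 and Ddx60 fell by 0.72 and 1.15 per the authors' deposited table. Not every gene of the interferon response passed. Stat2, a member of the list, had -0.07, and Irf7 and Oas2 had 0.14 and 0.04, none called, per the authors' deposited table. Against the F distribution 15 members were lower and none higher. Of the 91 transcripts of these genes, 12 fell and none rose, against 1.99% and 1.96% of all 26648 transcripts.

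**Figure D2:**
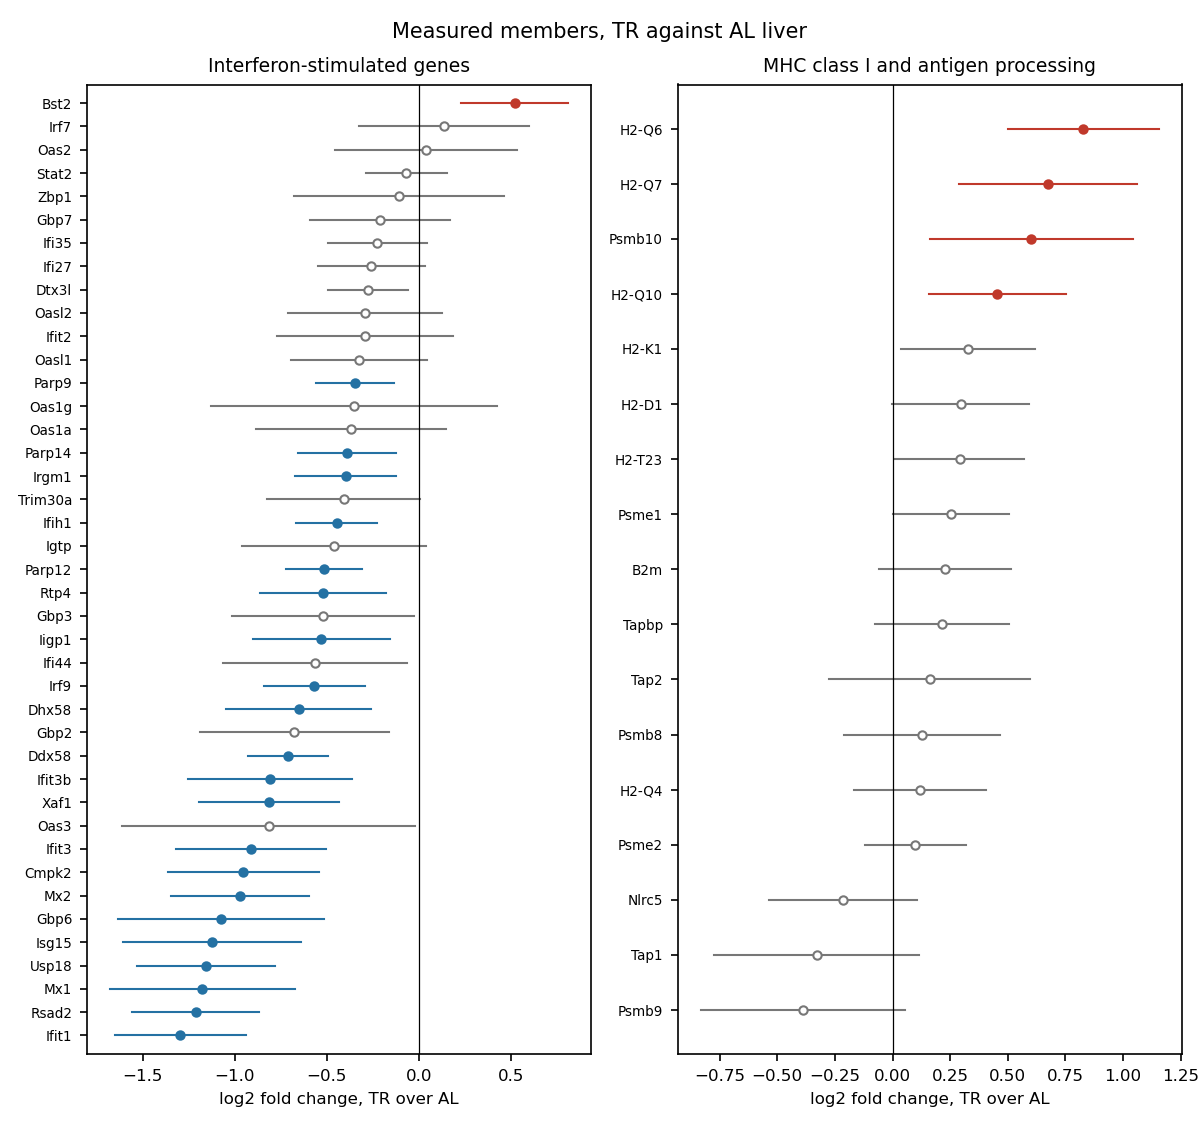
Log2 fold change of TR over AL liver for measured members of the interferon-stimulated list (left) and of the MHC class I list (right). Points are the deposited values and bars the approximate 95% interval from the derived SE, filled red where higher in TR, filled blue where lower and open where not called. The left panel lies to the left of 0 except for 3 genes, and the right panel leans to the right.

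The gene families beside this list were looked up after the list's values were seen. Of 10 interferon-induced Trim genes, 8 fell and 1 rose, led by Trim30d with -1.20 (adjusted p = 6.08e-10) per the authors' deposited table. Trim25, a ubiquitin ligase that acts on RIG-I, rose by 0.75 (adjusted p = 2.10e-08) per the authors' deposited table. All 11 measured guanylate-binding protein (Gbp) genes lay below 0, and Gbp6 and Gbp9 were called, with -1.07 and -0.55 per the authors' deposited table. Trim12, Trim30 and Gbp genes are clusters of close copies, and reads may be split between them.

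MHC class I and antigen processing, which interferon can also raise, did not fall. None of its 17 measured members fell, 4 rose (23.5%), and the median was 0.23. H2-Q6, H2-Q7 and H2-Q10, class Ib genes that share sequence, rose by 0.83, 0.68 and 0.45, and Psmb10, an immunoproteasome subunit, by 0.60 per the authors' deposited table. The classical genes H2-K1 and H2-D1 had 0.33 and 0.30 and were not called per the authors' deposited table. Among 14 targets of NF-kB and chemokines, 1 rose and none fell, with Icam1 at 0.45 and Il1b, not called, at -0.70 (adjusted p = 0.0416 and 0.0617) per the authors' deposited table.

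Markers of the cells that could carry part of the interferon signal moved as well. Of 13 Kupffer cell and macrophage markers, 2 fell, none rose, and the median was -0.48, with 11 of 13 below 0. Marco, a scavenger receptor, fell by 0.99 (adjusted p = 0.0072) and Timd4, a receptor of resident macrophages, by 0.70 (adjusted p = 0.0238), while Adgre1 (F4/80) and Clec4f had -0.53 and -0.32 and were not called per the authors' deposited table. The part of macrophage content in the interferon result was not tested.

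Many ER chaperone genes fell, and 4 genes of sensors and factors of the unfolded protein response did not pass. Of 30 measured genes listed for ER folding, the unfolded protein response and ER-associated degradation, 12 fell (40%), none rose and the median was -0.23. Outside this list, Serpinh1, an ER chaperone counted with the heat shock genes below, rose by 1.08 per the authors' deposited table. Fkbp2 and Fkbp14, ER isomerases outside it, also rose, and Pdilt, a relative of the disulfide isomerases, fell by 1.05 per the authors' deposited table. Derl3, which helps to move misfolded proteins out of the ER (ENSMUSG00000009092, GRCm38 chromosome 10 from 75893413 to 75895941), fell by 2.60 (approximate SE 0.545, adjusted p = 4.65e-05) per the authors' deposited table. Pdia4, a disulfide isomerase, and Calr, the lectin chaperone calreticulin, fell by 0.92 and 0.73 (adjusted p = 7.82e-05 and 7.08e-05) per the authors' deposited table. Hsp90b1, the ER form of HSP90, fell by 0.86 and Hspa5, which encodes BiP, by 0.60 (adjusted p = 7.56e-04 and 0.044) per the authors' deposited table. Atf6, Xbp1, Ern1 and Eif2ak3, genes of sensors and factors of the unfolded protein response, had -0.13, -0.07, -0.02 and 0.05, none called per the authors' deposited table. These are RNA levels, and the activity of the proteins was not measured. Against the F distribution 4 of the ER genes passed.

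Other lists of the secretory machinery had shares of calls below the background. None of 20 N-glycosylation genes passed, and their values ran between -0.22 and 0.23. Of 25 COPI and COPII coat and cargo genes, Copb2 alone fell, by 0.30 per the authors' deposited table. Of 23 genes of the translocon, signal recognition particle and signal peptidase, Sec61b alone was called, with a rise of 0.52 per the authors' deposited table. The 16 ATF4 and amino acid response targets divided into 3 that rose and 3 that fell. Atf5 and Asns, which encodes asparagine synthetase, fell by 1.19 and 1.54 (adjusted p = 5.89e-11 and 0.00983), while Cebpb, a transcription factor of the acute phase and of gluconeogenesis, rose by 0.77 (adjusted p = 0.00123) per the authors' deposited table. Atf4 itself had 0.00 and Trib3 -0.17, not called per the authors' deposited table.

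Of 29 measured members of the heat shock list, 4 rose (13.8%) and none fell, with a median of 0.16. Beside cytosolic genes the list holds Serpinh1, of the ER, and the mitochondrial Hspd1 and Hspe1. Hspb6, a small heat shock protein gene outside the list, fell by 0.50 (adjusted p = 0.00214) per the authors' deposited table. Hspa1b, an inducible HSP70, rose by 1.48 (approximate SE 0.502, adjusted p = 0.0226), and Hspb1, a small heat shock protein, by 0.79 (adjusted p = 0.0212) per the authors' deposited table. Serpinh1, the collagen chaperone HSP47, which works in the ER of matrix-producing cells, rose by 1.08 (adjusted p = 2.56e-09) per the authors' deposited table. Hsp90aa1, an HSP90 of the cytosol, and Hspd1, the mitochondrial HSP60, lay at 0.08 and 0.01, not called, per the authors' deposited table. Of the 8 subunits of the CCT chaperonin, Cct6a fell by 0.28 and the others did not pass per the authors' deposited table.

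Genes of ribosome assembly rose in 15 of 50 measured cases (30%) and fell in 2 (4%), and the median was 0.21. Nolc1, a chaperone of nucleolar ribonucleoproteins (ENSMUSG00000015176, GRCm38 chromosome 19 from 46075863 to 46085530), rose by 0.77 (approximate SE 0.132, adjusted p = 3.11e-07) per the authors' deposited table. Nip7, Tsr1 and Rrs1, which mature the ribosomal subunits, rose by 0.61, 0.53 and 0.74 (adjusted p = 3.82e-04, 8.58e-04 and 8.72e-04) per the authors' deposited table. Polr1a and Polr1b, the large subunits of RNA polymerase I, rose by 0.33 and 0.36 per the authors' deposited table. The 2 that fell were Dkc1, the pseudouridine synthase dyskerin, at -0.34, and the helicase gene Ddx10 at -0.32 per the authors' deposited table. Npm1, Ncl and Fbl, abundant nucleolar proteins, had 0.09, 0.00 and 0.20, not called per the authors' deposited table. Against the F distribution 4 of the 50 were higher and none lower.

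Translation and splicing factors were called as follows. Of 37 translation initiation factors, 1 rose and 1 fell, Eif1b with 0.32 and Eif5 with -0.52 per the authors' deposited table. Of 20 cytosolic tRNA synthetases, Lars fell by 0.39 and no other passed per the authors' deposited table. SR and hnRNP splicing factors leaned down, with 7 of 35 lower (20%) and 2 higher (5.71%). Hnrnpa1 fell by 0.46 (adjusted p = 6.43e-05) and Rbm3, a cold-inducible RNA-binding protein, by 0.37 (adjusted p = 0.0028), while Hnrnpc and Srsf7 rose by 0.44 and 0.43 per the authors' deposited table.

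**Figure D3:**
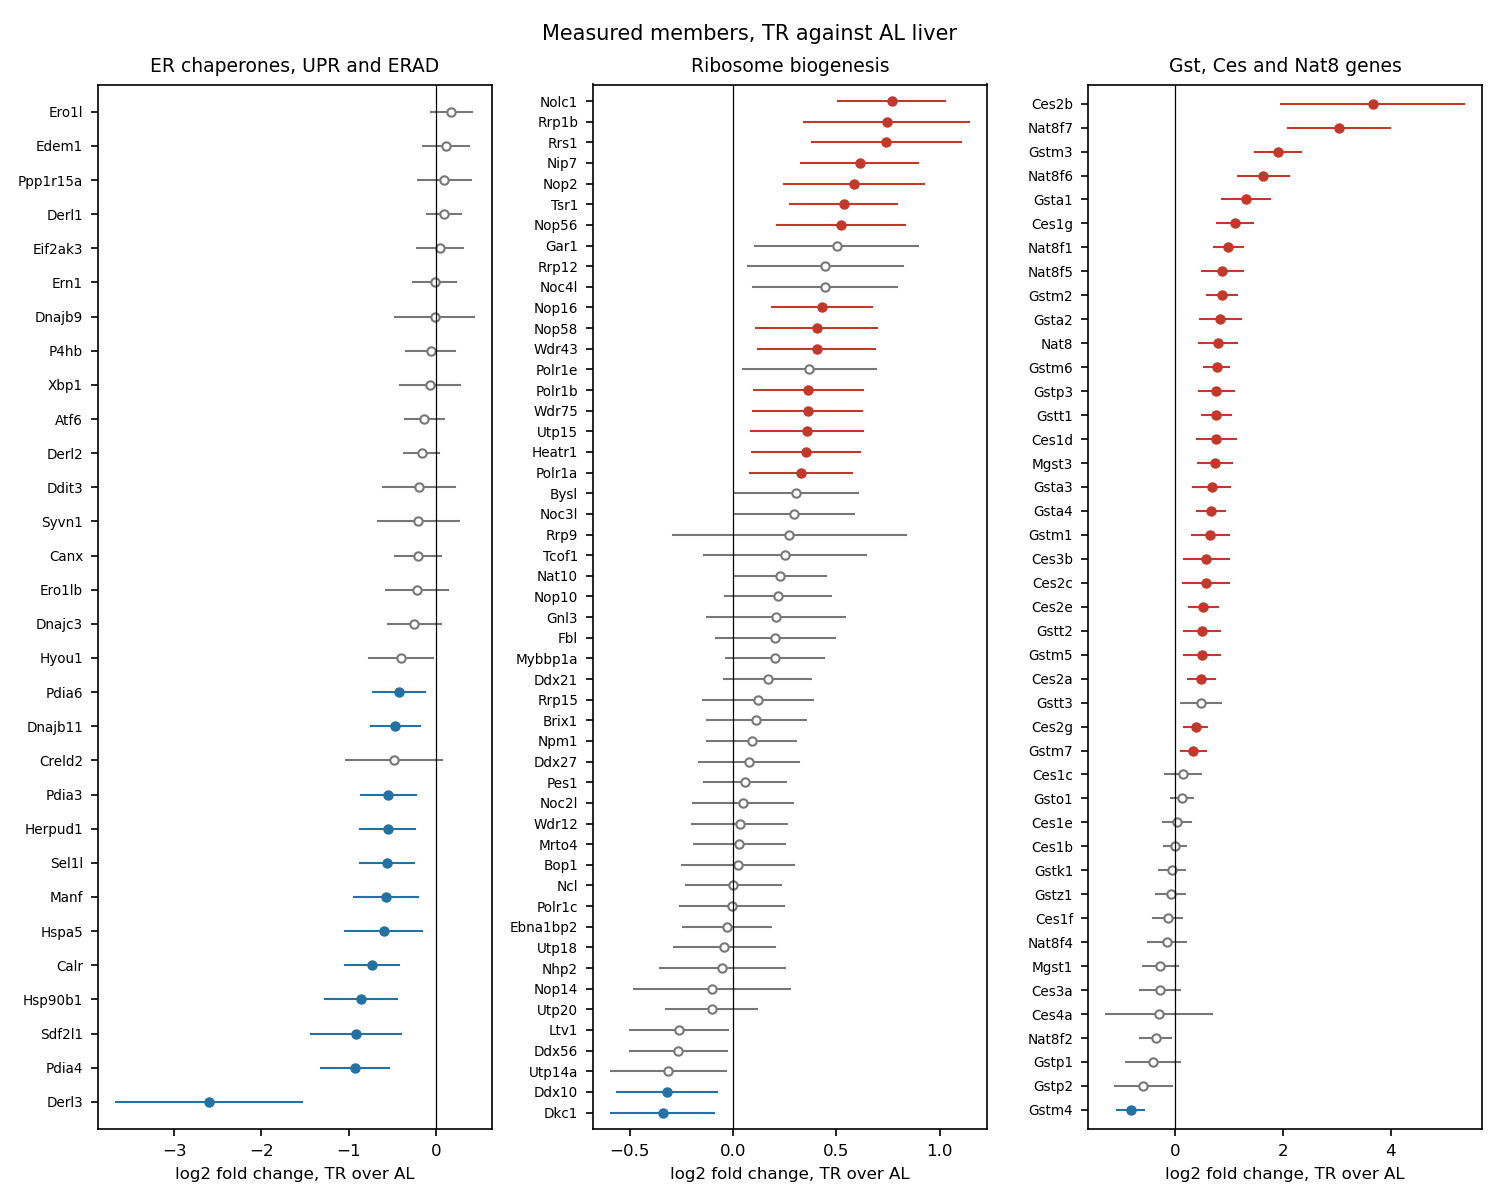
Log2 fold change of TR over AL liver for each measured member of the ER chaperone list (left), the ribosome biogenesis list (middle) and the Gst, Ces and Nat8 genes (right), with the approximate 95% interval. Filled red is higher in TR, filled blue lower, open not called: no gene of the ER list is red, 15 ribosome genes are red and 2 blue, and Gstm4 is the blue point on the right.

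Enzymes that conjugate or hydrolyse foreign compounds rose in several families: of 22 measured glutathione S-transferases, 14 rose (63.6%), 1 fell and the median was 0.57. Gstm3, of the mu class (ENSMUSG00000004038, GRCm38 chromosome 3 from 107963696 to 107969283), rose by 1.91 (approximate SE 0.219, adjusted p = 5.90e-16) per the authors' deposited table. Gsta1, of the alpha class, rose by 1.32 (adjusted p = 4.04e-07), and Gstm2 and Gstm6 by 0.87 and 0.77 per the authors' deposited table. Gstm4, which lies in the same cluster on chromosome 3 between 108040408 and 108044894, fell by 0.83 (adjusted p = 1.76e-08) per the authors' deposited table. Members of a class share sequence, and reads may be divided between them.

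Of 21 measured members of a list of NRF2 targets and genes of glutathione supply, 3 fell (14.3%) and none rose. The list leaves out the glutathione S-transferases described above, some of which are also known as NRF2 targets. Srxn1, which repairs oxidised peroxiredoxins, Gsr, the glutathione reductase, and Ephx1, an epoxide hydrolase, had -0.74, -0.53 and -0.36 (adjusted p = 9.53e-08, 7.05e-06 and 0.0351) per the authors' deposited table. Nqo1 and Gclc, common markers of NRF2 activity, had -0.17 and -0.37 and were not called per the authors' deposited table.

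Carboxylesterases gave the largest share of rising genes of any symbol family with at least 10 measured genes, with 8 of 14 (57.1%) and none lower. Ces2b, at a log2 mean CPM of -0.67 near the low end, rose by 3.66 (approximate SE 0.867, adjusted p = 4.38e-04) per the authors' deposited table. Ces1g, a lipid-hydrolysing esterase of the liver, rose by 1.11 (adjusted p = 1.31e-08) per the authors' deposited table. Nat8 genes, counted after their values were seen, encode acetyltransferases of the kind that acetylate cysteine conjugates made from glutathione adducts. Of 7 Nat8 genes 5 rose, with Nat8f7 at 3.04 (adjusted p = 1.95e-08), Nat8f6 at 1.64 and Nat8f1 at 0.99 per the authors' deposited table. Fmo5, a flavin monooxygenase looked up after its value was seen, rose by 0.67 (adjusted p = 5.27e-05) per the authors' deposited table.

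Of the Cyp2 symbol family, 14 of 36 rose (38.9%) and 2 fell. Cyp2b13 and Cyp2b9 had fitted log2 fold changes of 12.92 (approximate SE 1.691) and 6.61 (approximate SE 0.751), and Cyp2a4 7.65 (approximate SE 0.930) per the authors' deposited table. Values of this size depend on the prior count of the fit where 1 group is near 0, which cannot be seen here, so they are read as large and not as exact folds. Cyp2b10, a classic target of the receptor CAR, rose by 2.04 and Cyp2a5 by 1.84 (adjusted p = 8.33e-06 and 1.68e-17), and Nr1i3, which encodes CAR, had -0.01, not called, per the authors' deposited table. Cyp2b9, Cyp2b13 and Cyp2a4 are known as female-biased genes of mouse liver and the Mup genes as male-biased. The 4 measured Y-linked genes Ddx3y, Eif2s3y, Kdm5d and Uty had -0.27, -0.18, 0.13 and -0.23, none called per the authors' deposited table.

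Drug transporters and further conjugating enzymes were also among the genes that changed. Slc22a7, the organic anion transporter OAT2, rose by 1.90 (adjusted p = 2.51e-12), and Slc22a26 by 4.26 (adjusted p = 5.38e-12) per the authors' deposited table. Of 22 UDP-glucuronosyltransferases and sulfotransferases, 7 rose (31.8%) and 2 fell (9.09%). Ugt1a5 and Ugt1a9, alternative first exons of 1 locus that share their other exons, rose by 1.36 and 0.74, and Sult1d1 by 0.80 per the authors' deposited table. Ugt3a1 fell by 0.97 (adjusted p = 6.99e-12), and Aox3, an aldehyde oxidase, by 1.77 (approximate SE 0.165, adjusted p = 8.11e-24) per the authors' deposited table.

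Genes of amino acid breakdown moved in both directions within a pathway. In the methionine cycle and sulfur amino acid list, 7 of 23 rose (30.4%) and 6 fell (26.1%), a total above the background in both directions with a median of -0.01. Bhmt, which remethylates homocysteine with betaine, fell by 1.09 (adjusted p = 3.75e-04), Cbs, the entry to cysteine synthesis, by 0.61, and Mat1a, the liver S-adenosylmethionine synthetase, by 0.59 (adjusted p = 5.24e-04 and 0.0148) per the authors' deposited table. Members of the list that rose included Gamt, which makes creatine, with 1.13 (adjusted p = 2.57e-12), Pemt, which makes phosphatidylcholine, with 0.42, and Mpst and Ethe1, of sulfide handling, with 0.81 and 0.74 per the authors' deposited table. Mat2a, the synthetase form of other tissues, rose by 0.41 (adjusted p = 0.00114) per the authors' deposited table.

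Tryptophan breakdown genes moved both ways. Tdo2, the first enzyme, and Aadat, a kynurenine aminotransferase, fell by 0.73 and 0.63 (adjusted p = 6.77e-05 and 1.99e-07), while Haao and Acmsd, late enzymes of which Acmsd leads away from NAD synthesis, rose by 0.68 and 1.44 (adjusted p = 1.94e-04 and 1.28e-13) per the authors' deposited table. In all, 6 of 17 genes of aromatic amino acid breakdown rose (35.3%) and 3 fell (17.6%). Prodh, proline dehydrogenase, and Got1, an aspartate aminotransferase, rose by 0.83 and 0.69, and Amt, of glycine cleavage, fell by 0.85 (adjusted p = 5.53e-08, 7.82e-05 and 2.79e-08) per the authors' deposited table. Branched-chain breakdown stood closer to the background, with 3 of 21 higher and 3 lower. Of 11 urea cycle and glutamine genes, Gls2, liver glutaminase, rose by 0.52 and no other passed per the authors' deposited table.

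Nucleotide metabolism rose more often than the background, with 9 of 28 genes higher (32.1%) and 1 lower. Cda and Uck1, of pyrimidine salvage, rose by 1.08 and 0.62, and Umps, of pyrimidine synthesis, by 0.52 (adjusted p = 5.66e-10, 1.03e-04 and 6.08e-05) per the authors' deposited table. Uox, urate oxidase, and Urad, of a later step of urate breakdown, rose by 0.88 and 0.56, and Hprt, of purine salvage, fell by 0.36 per the authors' deposited table. Mthfd1l, a mitochondrial folate enzyme that releases formate, rose by 1.54 and Aldh1l1, which oxidises formyl-folate, by 0.77 (adjusted p = 6.51e-06 and 3.22e-04) per the authors' deposited table. The log2 mean CPM of Mthfd1l was low, at 0.30. NAD metabolism and sirtuin genes rose in 2 of 18 cases and fell in 2 (11.1% each way), near the background. Nmrk1, which makes NAD precursor from nicotinamide riboside, rose by 1.26, and Nmnat3, an NAD synthase of mitochondria, fell by 0.61 (adjusted p = 1.28e-13 and 0.00119) per the authors' deposited table.

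Several carbohydrate enzymes typical of hepatocytes rose. Of 24 glycolysis and fructolysis genes, 5 rose (20.8%) and 2 fell (8.33%). Pklr, the liver pyruvate kinase, rose by 1.42, and Khk, which traps fructose, by 0.97 (adjusted p = 1.52e-17 and 2.11e-06) per the authors' deposited table. Hk2, a hexokinase of muscle and fat, and Ldha fell by 1.08 and 0.61 (adjusted p = 0.00587 and 1.02e-04) per the authors' deposited table. The log2 mean CPM of Hk2 was low, at 0.48. At the same time G6pc, the glucose-6-phosphatase that lets glucose leave the cell, rose by 1.81 (approximate SE 0.243, adjusted p = 1.03e-11) and its transporter partner Slc37a4 by 0.69 per the authors' deposited table. Pck1, the cytosolic gatekeeper of gluconeogenesis, had -0.22 and was not called per the authors' deposited table.

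Glycogen genes moved both ways, with 3 of 13 higher and 4 lower. Gys2, liver glycogen synthase, rose by 0.99 (adjusted p = 9.16e-13), Pygl, liver phosphorylase, by 0.59, and Ppp1r3b, the glycogen-targeting phosphatase subunit, by 0.60 per the authors' deposited table. The 4 that fell were Stbd1, a glycogen-binding protein, with -0.63, the phosphorylase kinase subunits Phkb and Phka2 with -0.40 and -0.37, and Gsk3b, which inhibits glycogen synthase, with -0.39 per the authors' deposited table. Both Pdk1 and Pdk4, kinases that shut pyruvate dehydrogenase, rose by 1.00 and 1.28 (adjusted p = 5.87e-13 and 0.00283) per the authors' deposited table. The pentose phosphate genes Tkt and Rpia rose by 0.78 and 0.72 per the authors' deposited table.

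Genes of hepcidin and orosomucoid, both secreted, rose. Hamp2 rose by 3.91 (approximate SE 0.506) and Hamp, the hormone that blocks iron export, by 0.87 (adjusted p = 1.35e-12 and 6.47e-06) per the authors' deposited table. Of 21 iron genes, 6 rose (28.6%), among them Id1, a target of the BMP signal that also drives hepcidin, with 0.94, Trf (transferrin) with 0.60 and Tmprss6, a brake on hepcidin, with 0.33 per the authors' deposited table. Ireb2 and Slc11a2, of iron sensing and uptake, fell by 0.35 and 0.32, and Bmp6, the ligand upstream of hepcidin, had -0.48 and did not pass per the authors' deposited table. Globin genes, which mark blood or erythroid cells, rose in the same livers: Hba-a1, Hba-a2, Hbb-bs and Hbb-bt had 1.75, 1.29, 1.34 and 1.41 per the authors' deposited table, while Alas2, the erythroid heme synthesis gene, had -0.08 and was not called. The part of blood content in these results was not tested.

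Acute phase genes moved in both directions, 5 of 29 higher (17.2%) and 3 lower (10.3%). Orm2 rose by 2.50 (approximate SE 0.193, adjusted p = 4.14e-35) and Orm1 by 0.78 per the authors' deposited table. Alb and Ttr, whose plasma proteins fall in inflammation, rose by 0.63 and 0.62 (adjusted p = 0.0313 and 0.00308), and Lbp, Saa3 and Il1rn fell by 0.64, 0.74 and 0.99 per the authors' deposited table. Saa1, Hp and Fgb, strong acute phase genes, lay at 0.03, 0.08 and 0.07, not called, per the authors' deposited table. Coagulation genes leaned up, with 8 of 30 higher (26.7%) and Klkb1, plasma prekallikrein, lower. F7 rose by 0.60, Proc, the anticoagulant protein C, by 0.58, and Kng1, kininogen, by 0.62 (adjusted p = 4.36e-05, 0.0205 and 0.00122) per the authors' deposited table. Complement was mixed, with 4 of 24 higher and 3 lower, and C6 of the membrane attack complex fell by 0.79 per the authors' deposited table.

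Secreted hormones of the liver changed in 9 of 19 cases, 7 higher (36.8%) and 2 lower (10.5%). Fgf21, a fasting hormone at a low log2 mean CPM of -0.43, fell by 1.47 (adjusted p = 9.71e-04) per the authors' deposited table. Angptl8, which rises on feeding, rose by 1.50 (adjusted p = 5.93e-04) per the authors' deposited table. Angptl4, another inhibitor of lipoprotein lipase, rose by 1.05 and Inhba, an activin subunit, by 0.88 per the authors' deposited table. In the growth hormone and IGF axis, 4 of 20 rose (20%) and 2 fell: Igf1 and its carrier Igfals rose by 0.55 and 0.68, Igfbp5 by 1.53, and Igf2r and Jak2 fell by 0.48 and 0.45 per the authors' deposited table. Socs2, Cish and Bcl6, which growth hormone regulates but not all in the same direction, had 0.92, -0.08 and 0.82 and did not pass per the authors' deposited table. Of 20 genes of insulin signalling and FOXO, 3 rose (15%) and 2 fell (10%). Irs2, an insulin receptor substrate, and Grb10, an adaptor of the insulin receptor, rose by 0.80 and 1.08 (adjusted p = 0.0014 and 1.03e-04), and Grb14, another such adaptor, fell by 0.37 (adjusted p = 0.00599) per the authors' deposited table.

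Bile acid genes leaned down, with 6 of 25 lower (24%) and 3 higher (12%). Cyp7a1, the rate-limiting enzyme of the classic pathway, rose by 0.79 (adjusted p = 5.06e-04), while Cyp7b1 of the alternative pathway and Cyp8b1, which sets cholic acid, fell by 0.91 and 0.65 (adjusted p = 2.33e-04 and 0.00678) per the authors' deposited table. Slc27a5, which activates bile acids for conjugation, rose by 0.60, and Slco1b2, an uptake carrier, and Abcb4, the phospholipid exporter, fell by 0.62 and 0.60 per the authors' deposited table. Of 17 hydroxysteroid dehydrogenases and reductases, 6 fell (35.3%) and 3 rose (17.6%). Hsd17b7, which also serves cholesterol synthesis, fell by 1.11 and Hsd17b6, of androgen and retinol oxidation, rose by 2.14 (adjusted p = 2.08e-14 and 2.34e-21) per the authors' deposited table. Retsat, the retinol saturase, fell by 1.72 (approximate SE 0.154, adjusted p = 1.26e-25), and Rdh9 and Rdh5 rose by 0.83 and 0.89 per the authors' deposited table.

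No measured gene of the autophagy list rose. Of 36 measured members, 7 fell (19.4%), 27 lay below 0 and the median was -0.15. Sqstm1, the cargo receptor p62, and Gabarapl1, a membrane conjugate of the autophagosome, fell by 0.66 and 0.59 (adjusted p = 3.58e-05 and 1.67e-05), and Atg7, the activating enzyme of conjugation, by 0.52 (adjusted p = 2.04e-04) per the authors' deposited table. Tfe3, a transcription factor of autophagy and lysosome genes, fell by 0.45, and its relative Tfeb had 0.45 and was not called per the authors' deposited table. Of 39 lysosome genes 4 were higher (10.3%) and 2 lower (5.13%): Glb1, a galactosidase, rose by 0.76 and Npc1, the cholesterol exporter, fell by 0.53 per the authors' deposited table. Of 29 ubiquitin-conjugating enzymes, 3 fell and 1 rose.

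Immediate early genes and phosphatases of MAP kinases leaned up. Of 23 measured immediate early genes, 7 rose (30.4%) and 1 fell (4.35%). Atf3 rose by 1.65, Dusp1 by 1.50 and Jun by 1.01 (adjusted p = 3.05e-10, 6.47e-16 and 0.009), Maff fell by 0.97, and Egr1 and Myc had -0.53 and 0.02, not called per the authors' deposited table. Of 14 Dusp genes, 5 rose (35.7%), led by Dusp14 with 2.70 (adjusted p = 2.78e-07) at a low log2 mean CPM of -0.25 per the authors' deposited table. Clock outputs outside the core loop rose in 6 of 13 cases (46.2%) and fell in 1: Nfil3 rose by 1.07 and Por, the electron donor of P450 enzymes, by 0.85, and Dbp fell by 2.79 per the authors' deposited table. Esrra, a nuclear receptor of mitochondrial genes, rose by 0.82 (adjusted p = 0.024), while 23 of the 28 nuclear receptors measured were not called per the authors' deposited table. Of 15 glucocorticoid-responsive genes, 4 rose (26.7%) and 2 fell (13.3%), with a median of 0.20. Tsc22d3, which encodes GILZ, a standard glucocorticoid target, rose by 0.54 (adjusted p = 0.0067) per the authors' deposited table. Klf9, a glucocorticoid-responsive factor, fell by 1.01, and Fkbp5, another such target, had 0.05, not called, per the authors' deposited table.

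Of 40 listed cell cycle genes 24 were measured, of which 4 rose and 1 fell. Ccnd1, Rrm2 and Prc1 rose by 0.75, 0.94 and 1.20, and Mcm4, of the replicative helicase, fell by 0.53 per the authors' deposited table. The log2 mean CPM of Prc1 was low, at -0.34. Of 10 symbols that start with Mcm, 3 fell (30%), with Mcm10 at -1.02 (adjusted p = 4.28e-09) per the authors' deposited table. Genes of the pericentral zone rose in 6 of 19 cases (31.6%) and fell in 2 (10.5%). Cyp1a2 and Rhbg rose by 1.19 and 1.03, and Lgr5, a Wnt-dependent receptor next to the central vein, fell by 1.30 (adjusted p = 2.06e-08) per the authors' deposited table. Glul, Axin2 and Cyp2e1, other central genes, lay at 0.15, 0.01 and 0.10, not called per the authors' deposited table. Of 18 periportal genes, 3 rose and none fell.

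**Figure D4:**
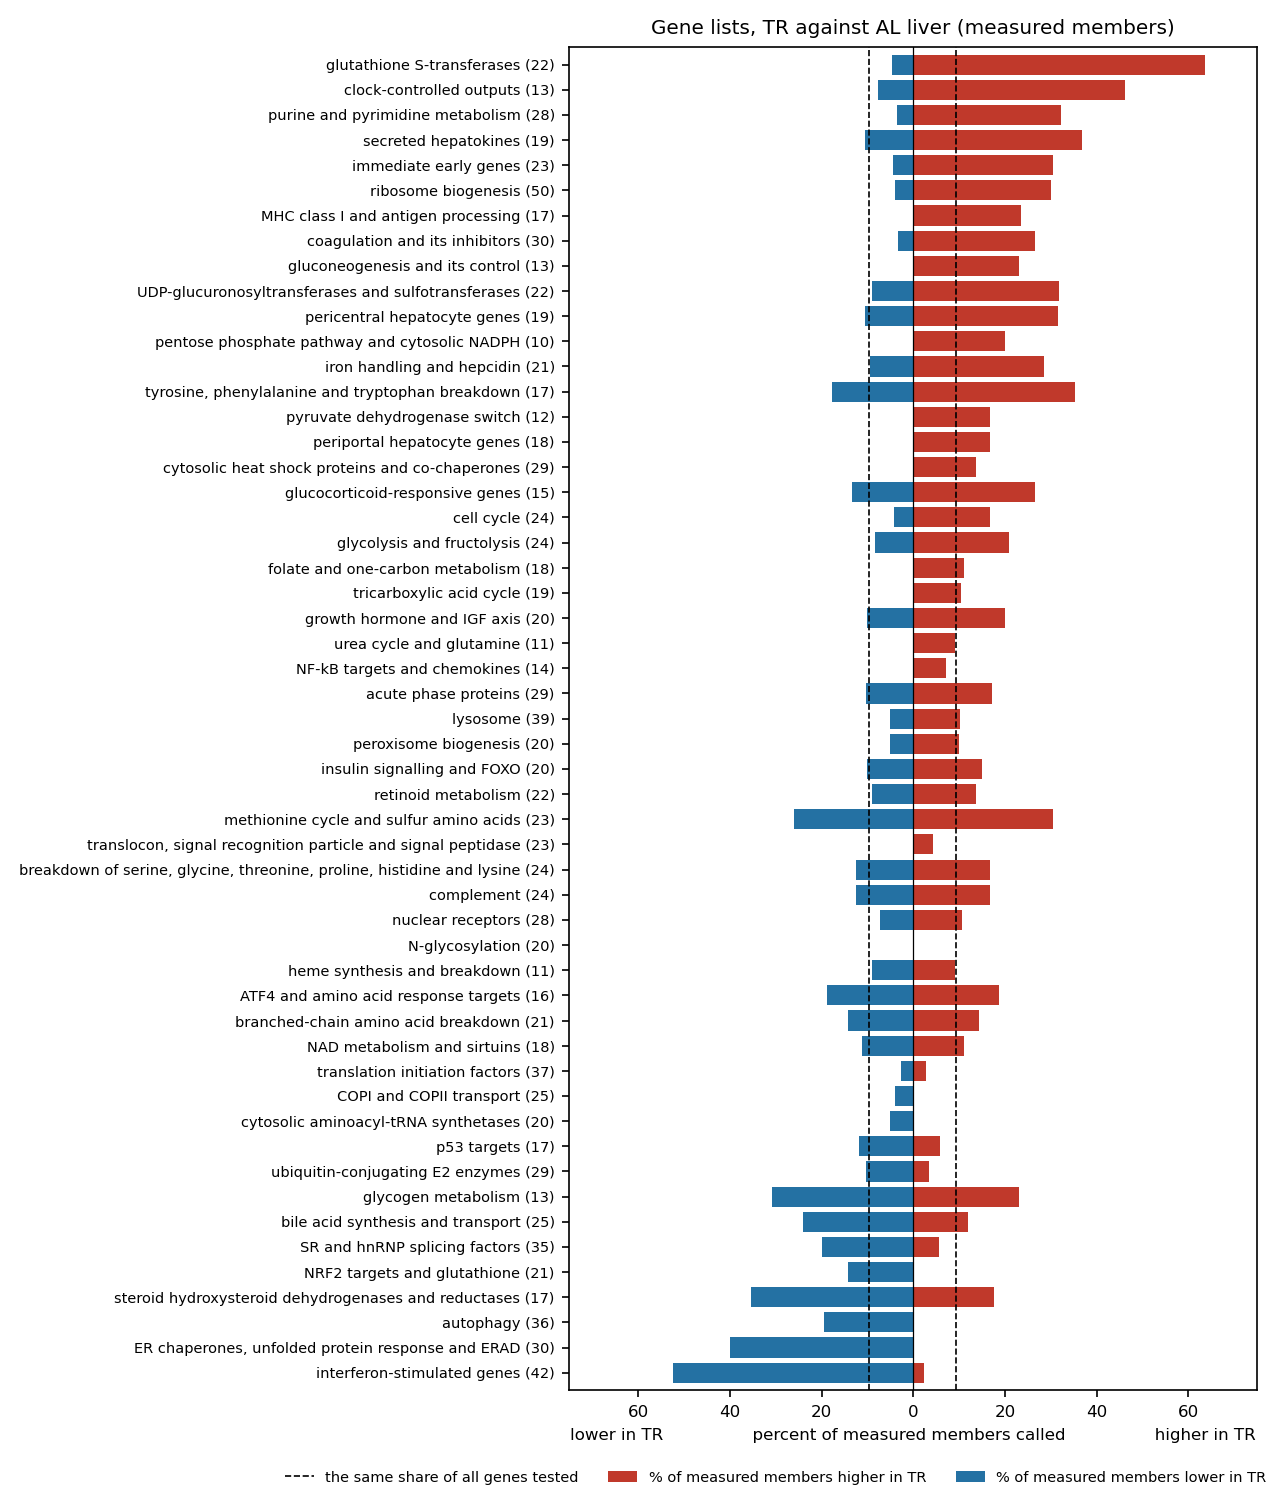
Percent of the measured members of each list that were higher in TR (red, to the right) or lower (blue, to the left) at an adjusted p under 0.05, for lists with at least 10 measured members, whose number stands in brackets. Dashed lines give the shares of all genes, 9.35% and 9.54%. Glutathione S-transferases reach 63.6% on the right and interferon-stimulated genes 52.4% on the left.

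Grouping all symbols by their leading letters gave 136 families of at least 10 measured genes. The 10 with the largest shares that rose were, beside the carboxylesterases, acyl-CoA thioesterases (Acot, 6 of 11), Nat (5 of 11), the complex I subunits Ndufb (5 of 12) and Ndufa (4 of 13), monocarboxylate transporters (Slc16, 4 of 10), Col (9 of 23), Cyp2, Dusp and Slc22 (4 of 14). In the Slc16 family Slc16a5 and Slc16a6 rose by 1.43 and 1.25 (adjusted p = 1.01e-11 and 2.28e-10) per the authors' deposited table. The thioesterases split, Acot3 and Acot6 rising by 1.63 and 1.25 and Acot1 and Acot12 falling by 0.63 and 0.46 per the authors' deposited table. The 10 with the largest shares that fell were Mup (16 of 19), the proteasome regulatory subunits Psmd (9 of 14), Cyp4 (6 of 13), Hsd (6 of 13), calpains (Capn, 4 of 10), myotubularin phosphatases (Mtmr, 4 of 11), Parp (4 of 12), Mcm, Dennd (4 of 14) and nucleoporins (Nup, 5 of 20). Capn8, at a low log2 mean CPM of 0.36, fell by 1.76 and Capn2 by 0.64 (adjusted p = 4.45e-06 and 4.48e-09) per the authors' deposited table. The Parp genes that fell included Parp9, Parp12 and Parp14 of the interferon list, with -0.35, -0.51 and -0.39 per the authors' deposited table. Letters group by name, not by descent, and 1 Col symbol that is no collagen was among the 23.

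Markers of other cell types and abundant structural RNAs also differed between the groups. Of 9 hepatocyte markers, 3 rose and none fell, with a median of 0.04. Of 22 collagen chain genes, counted after their values were seen, 9 rose and none fell, with Col1a1 at 1.54 (adjusted p = 3.91e-07), Col1a2 at 0.91 and Col3a1 at 0.84 per the authors' deposited table. Of 14 markers of stellate cells and fibroblasts, which include those 3 collagens, 4 rose (28.6%) and none fell, the 4th being Colec11 with 0.37 (adjusted p = 0.045) per the authors' deposited table. Acta2 and Tagln, contractile genes outside the list, rose by 0.97 and 1.11 (adjusted p = 0.0102 and 2.26e-07) per the authors' deposited table. Other markers of stellate cells, Lrat, Des and Pdgfrb, had -0.33, 0.11 and 0.10 and were not called per the authors' deposited table. The cholangiocyte markers Epcam and Krt19 rose by 1.17 and 1.28, at low log2 mean CPMs of 0.325 and 0.378, per the authors' deposited table. Sox9 and Pkhd1 had 0.10 and 0.26, not called, per the authors' deposited table. Of 14 sinusoidal endothelial markers, 1 rose and 2 fell, and none of the 2 T cell and 7 B and plasma cell markers measured passed. Of the adipocyte markers Cfd alone was measured, at a low log2 mean CPM of -0.05, and it fell by 2.47 (approximate SE 0.809, adjusted p = 0.017) per the authors' deposited table. No natural killer cell or skeletal muscle marker was in the table.

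Short structural RNAs without a poly(A) tail were lower in TR. All 8 genes annotated as small nuclear RNA were called lower, but 7 of them, Rnu1a1 and 6 predicted genes, carry the same values in the table (-4.36 at a log2 mean CPM of -0.951), near its low end, so the 8 are not separate measurements. Of 8 small nuclear RNA transcripts, 1 was called lower. Rn7sk and Rn7s1, the 7SK and signal recognition particle RNAs, had -2.88 and -2.17 (adjusted p = 0.00167 and 0.00838) per the authors' deposited table. Lars2, whose mouse locus holds sequence like ribosomal RNA, fell by 2.83 (approximate SE 0.665, adjusted p = 3.89e-04) per the authors' deposited table. The 1 gene annotated as ribosomal RNA, at a high log2 mean CPM of 11.39, fell by 2.79, and the 1 transcript so annotated also fell. The mitochondrial ribosomal RNAs mt-Rnr1 and mt-Rnr2 were not called, the second at -1.13, and of 13 mitochondrial messenger genes 1 rose, mt-Nd3 with 0.79 per the authors' deposited table. How much of such RNA a library keeps can depend on its preparation, and the part of that in other results was not tested. Of 172 genes annotated as antisense, 25 fell and 10 rose (20.3% called), beside 19% of 11844 protein-coding genes.

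The transcript table gave fewer calls than the gene table, 1050 of 26648 (3.94%), with 521 higher (1.96%) and 529 lower (1.99%), and a median approximate SE of 0.398. Of 1047 called transcripts that belonged to a tested gene, 902 had a gene called the same way, 133 a gene not called and 12 a gene called the other way. The share called was 1.68% of 3800 retained-intron transcripts and 4.7% of 19130 protein-coding ones, whose median log2 mean CPM was 0.75 and 2.61. Of 111 called transcripts with a log2 change of 5 or more, 99 had a log2 mean CPM under 2, where an estimate of RSEM can drop a transcript to 0 in 1 group, so these sizes are not read as folds.

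In 7 genes transcripts were called in both directions. Bhmt-201, the protein-coding form with 98.9% of the gene's mean CPM, fell by 1.11, while Bhmt-202, with a retained intron, rose by 1.24 per the authors' deposited table. Fdps-201 of farnesyl diphosphate synthase fell by 0.76 and Fdps-203 rose by 0.67, both protein-coding in GENCODE, per the authors' deposited table. Tm7sf2-201, which encodes a sterol reductase, rose by 0.72 and the retained-intron Tm7sf2-206 fell by 1.19 per the authors' deposited table. In Acot1 the processed transcript Acot1-204 fell by 0.76 and the retained-intron Acot1-203, with 3.91% of the gene's mean CPM, rose by 1.73 per the authors' deposited table. The other 3 were Ppp1r10, Slc29a1 and 5031439G07Rik, each with a minor transcript below -9 and another one that rose. Among genes that were not called, Pcx-202, a form of pyruvate carboxylase with 19.7% of its gene's mean CPM, fell by 1.70 (adjusted p = 2.52e-05), and Hnrnpa2b1-201 fell by 1.04 (adjusted p = 1.73e-07) per the authors' deposited table. Acsl1-203, a form of a long-chain acyl-CoA synthetase with 2.58% of its gene's mean CPM, rose by 2.22 (adjusted p = 5.16e-11) per the authors' deposited table, and was chosen for its small p after its value was seen.

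**Figure D5:**
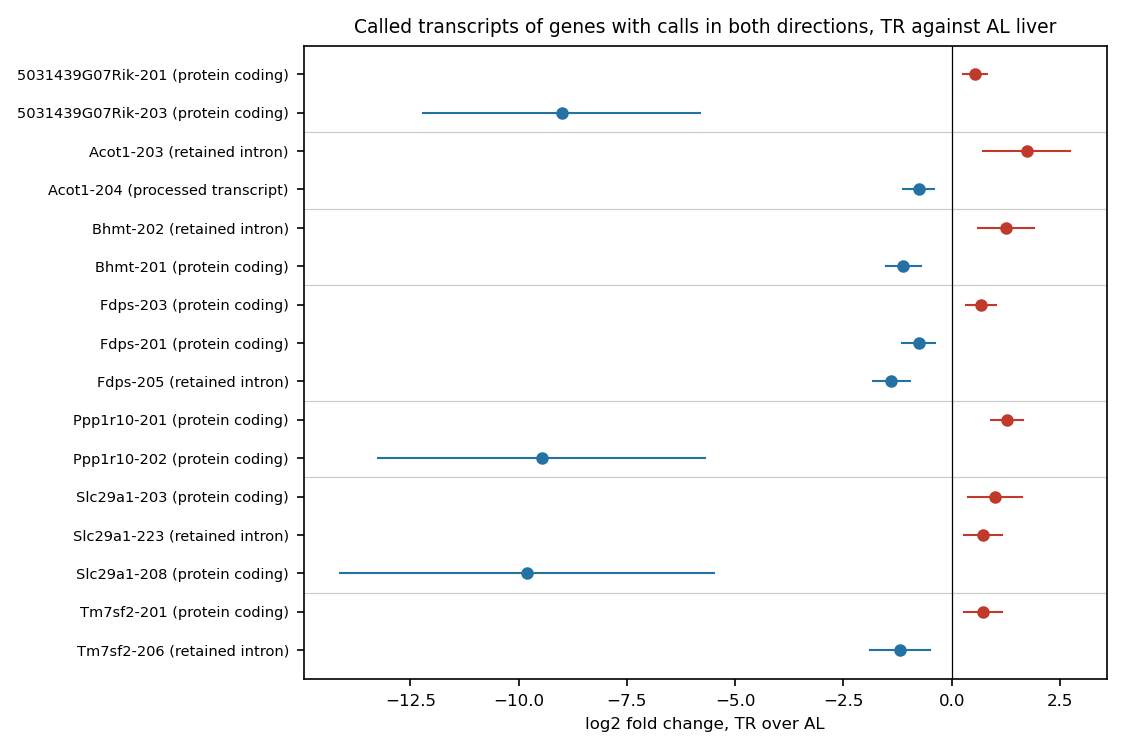
Log2 fold change of TR over AL liver for the called transcripts of the 7 genes with calls in both directions, with the approximate 95% interval and the GENCODE type of each transcript. Red is higher in TR and blue lower, and 3 minor transcripts near -9 or -10 have wide intervals.

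Setting CR livers against TR livers, 59 of 12593 genes passed (0.469%), 20 higher and 39 lower in CR, and the fold is CR over TR as deposited. Read against an F distribution with 1 and 10 degrees of freedom, as an alternative chosen after seeing the data, 0 genes passed after adjustment, so each CR against TR call below ends under it. This table shares the TR livers with the comparison above. No interferon-stimulated gene, ER chaperone, glutathione S-transferase or ribosome biogenesis gene of the lists was among the 59. These lists have 42, 30, 22 and 50 measured members. With 0.469% of all genes called, few or none would be called at that share. The absence is therefore not read as a likeness of the CR and TR livers in these lists. Ifit1, Hspa5, Gstm3 and Nolc1 had CR minus TR values of 0.36, 0.27, -0.65 and -0.04 (approximate SE 0.136, 0.237, 0.265 and 0.164) per the authors' deposited table. Ugt1a5 was lower in CR by 0.80 (adjusted p = 0.00121) and Cyp7a1 by 0.58 (adjusted p = 0.0217) per the authors' deposited table. Igfbp2 and Id2, which were not called between TR and AL livers at 0.20 and 0.12, were lower in CR by 0.79 and 0.64 (adjusted p = 2.02e-04 and 1.94e-04) per the authors' deposited table.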

How the data were processed

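RNA sequencing (Illumina TruSeq, from 1 ug of total RNA, per the labels' protocols) was compared between 6 TR and 6 AL livers. Reads were processed with bcl2fastq 2.20, STAR 2.5.3a and RSEM on GRCm38.p5, per the submitters' processing notes, which give no RSEM version. The values are those of the authors' edgeR generalized linear model tables, per the file headers: log2 fold changes, the mean log2 CPM, a score (the likelihood-ratio statistic), p-values and Benjamini-Hochberg adjusted p-values (FDR). No counts per library were used here, so depth and replicate spread are unknown and nothing was refitted. The p-values matched the chi-square tail of the statistic within 5.00e-06, the adjusted p-values a recomputed adjustment over all genes within 2.30e-04. The titles number the 6 livers of a group differently, and most numbers recur on a fat sample of the same diet, but no source used here says that a number marks a mouse. If it does not, p-values measure only the spread between these samples, which may be technical.

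A feature was called at an FDR under 0.05 over its whole table, 2-sided. Approximate SEs and 95% intervals (1.96 SE) were derived as the size of the fold change divided by the square root of the statistic. The adjustment and the F distribution were run on simulated statistics, but the SE derivation was not tested. Counts were taken over 54 gene lists and 14 marker lists (1314 genes, 1207 measured), of which 73 genes stand in more than 1 list. The members and lists were chosen with earlier results of these data known. Named genes were the 15 highest and 15 lowest called log2 changes at a log2 mean CPM of at least 2 without predicted genes, up to 4 members a list by adjusted p, the members of counts of 5 or fewer, and genes with transcripts called both ways. Other genes were named for their role or chosen after their values were seen. Positions are those of GENCODE M21 (GRCm38), matched by identifier for all 1545 symbols looked up, and promoters those of RefSeq on GRCm38.p6, matched by symbol for 9743 of 12690 genes. Some genes are not reported or plotted here, though counts include them. Alternatives were other thresholds, a CPM filter, a minimum size, an F distribution, centring and transcripts. Python 3.11.15, pandas 2.3.3, scipy 1.17.1 and matplotlib 3.10.9 were used.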

Additional observations from a re-analysis of the deposited data

Results flagged for a closer look

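Of 212 genes named by rule, 211 were tested between CR and TR livers. Among these and other genes named here, less those not reported, 16 differed at an adjusted p under 0.05, beside 59 of 12593 genes (0.469%). Most were named for their TR against AL values, so the 16 cannot be set against that share. With the TR livers in both comparisons, this choice favours CR minus TR values of the opposite sign. Each value below is CR minus TR per the authors' deposited table, which shares the TR livers with the TR against AL comparison. The Mup genes, lower in TR than in AL livers, were higher in CR than in TR livers, by 3.37 for Mup7, 3.05 for Mup1, 2.64 for Mup12, 1.82 for Mup14, 1.42 for Mup11 and 1.37 for Mup19 per the authors' deposited table. The Cyp2 genes Cyp2b13 and Cyp2a4, higher in TR than in AL livers, were lower in CR than in TR livers, with fitted values of -4.97 and -4.18 per the authors' deposited table. Rgs16 had -1.88, Ugt1a5 -0.80, Esrra -0.70, Hsd17b6 -0.64 and Ugt1a9 -0.50 per the authors' deposited table, each of them higher in TR than in AL livers. Cyp7a1, also higher in TR than in AL livers, had -0.58, and Igfbp2 and Id2, not called between TR and AL livers, had -0.79 and -0.64 per the authors' deposited table. The adjusted p of the 16 ran between 1.94e-04 for Id2 and 0.0473 for Esrra. Against an F distribution, with p readjusted, 0 genes passed between CR and TR livers, so none of the 16 calls holds under that alternative, beside 1263 genes at an unadjusted p under 0.05 as deposited.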

How the results depend on the processing

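Against an F distribution with 1 and 10 degrees of freedom, readjusted, 472 genes were higher and 510 lower in TR livers, beside 1186 and 1211 as deposited, and 111 transcripts were higher and 99 lower, beside 521 and 529. At an FDR under 0.01, 703 genes were higher and 721 lower, and 325 transcripts were lower. With a log2 change of at least 0.5, 676 genes were lower. The other counts of called genes and transcripts stayed within 1.5 times under an FDR under 0.10, the filter at a log2 mean CPM of 1 and the minimum size. Between CR and TR livers, by the same alternatives chosen after seeing the data, 29 genes passed an FDR under 0.01, 91 an FDR under 0.10 and 0 the F distribution, beside 59 by the authors' edgeR test and 1263 at an unadjusted p under 0.05. Of 132 counts over lists, 68 moved by over 1.5 times against the F distribution, 40 at an FDR under 0.01, 40 with the minimum size, 19 at an FDR under 0.10 and 5 with the CPM filter, and the cause was not tested. All 211 named genes with a transcript in the table had the same direction in their most abundant transcript, which was called in 138. Leaving out each replicate in turn was not run, since the tables hold no values per library. No paired analysis was possible because the columns carry no replicate. Unknown depth limits the genes of low CPM most.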
